A study of Mus musculus with 7 samples.

Results

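The immunity-related GTPases are a family of interferon-inducible proteins, and 8 of their genes were followed here in mouse bone marrow cells sorted as haematopoietic stem cells (HSCs), the cells from which blood lineages arise. The genes are Irgm1, Irgm2, Igtp, Iigp1, Tgtp1, Tgtp2, Ifi47 and Gm4951. They were taken by name as family members, with earlier results of these data known. All 8 were found among the 28786 genes of the count table. The study concerns myeloid-biased HSC output in mice with a tumour, and interferon gamma stands in its title. The control group came from normal mice and the other group from C57BL/6J mice with MC38, a mouse colon carcinoma. Per the labels' protocols the mice were 6 to 8 weeks old, marrow came from femora and tibiae, and each library was made from 1500 sorted cells with 12 PCR cycles. The labels name no transgene or deletion in either group. Not stated in the labels are the tumour site, its age, the sort gates and whether each library is a separate animal, so p-values reflect only library-to-library spread, possibly technical. The comparison used 2 control and 4 MC38 libraries. A further control column was left out because it was taken from the start as not independent. Its ratio to the sum of the other controls was 0.351 to 0.371 for the 8 members. The median was 0.353 over 9692 genes whose sum reached 200. Library totals alone would give a like median, so that value cannot decide whether the column is independent. For Mx2, at 0 and 50 counts in controls 1 and 2, the column held 18 counts. For Klf1, at 769 and 343 counts, it held 386. The dependence was not tested.

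Immunity-related GTPases defend mouse cells against vacuolar pathogens such as Toxoplasma and Chlamydia. Effector members, with a conventional lysine-bearing (GKS) nucleotide-binding motif, load onto the vacuole membrane and help to break it. Regulatory members, with a methionine in its place (GMS), sit on the cell's own membranes and keep the effectors inactive there. The regulators are Irgm1, Irgm2 and Igtp (also called Irgm3), and the effectors are Iigp1 (Irga6), Tgtp1 and Tgtp2 (Irgb6), Ifi47 (Irgd) and Gm4951 of the Irga group. Interferon gamma induces the genes through promoter elements called gamma-activated sites and through interferon-stimulated response elements, which bind interferon regulatory factors. Irgm1 is also known for a role in HSCs, since HSCs that lack it overproliferate and repopulate marrow poorly.

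Start regions that hold matches to these elements are printed because the series concerns interferon gamma. RefSeq start windows (GRCm38.p6, 250 bases before to 50 after the start) matched 6 of the 8 members; Iigp1 and Gm4951 were the others. A gamma-activated site was searched as TTCNNNGAA and a response element as GAAA, any 2 bases and GAAA, each on both strands, where overlapping matches count separately. All 4 windows of Irgm2, Igtp, Tgtp1 and Tgtp2 held both motifs, with 2 bases between them. Of 32851 such windows in the whole table, 8.3% held the first motif, 3.44% the second and 0.454% both. The sequences below run 5′ to 3′ on the gene's strand, with the matches in capitals.
Igtp, chr11:58199477-58199546, plus strand: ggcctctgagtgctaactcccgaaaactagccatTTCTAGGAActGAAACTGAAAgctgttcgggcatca
Irgm2, chr11:58214868-58214937, plus strand: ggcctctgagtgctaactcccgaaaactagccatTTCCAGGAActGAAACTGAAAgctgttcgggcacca
Tgtp1, chr11:48992299-48992368, minus strand: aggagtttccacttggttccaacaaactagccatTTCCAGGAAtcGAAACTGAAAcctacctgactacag
Tgtp2, chr11:49064258-49064327, minus strand: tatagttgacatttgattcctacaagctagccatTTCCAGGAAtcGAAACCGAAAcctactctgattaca
Irgm1, chr11:48871433-48871462, minus strand: agcctgtttcaaGAAATAGAAACCGAAAct

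Igtp and Irgm2, both regulators, were identical at 68 of 70 bases, and the Tgtp pair at 51 of 70. Between the pairs the identity was 39 to 43 of 70. The Irgm1 window held 2 overlapping matches to the response element and no match to TTCNNNGAA, and the Ifi47 window held neither. All 30 printed bases of Irgm1 lie inside an exon of that gene in the GENCODE M21 annotation. For Irgm2, bases just after the RefSeq start were not found in its GENCODE M21 transcripts. That annotation starts Irgm2 at 58199618, outside the RefSeq window. A match is a description of letters in the window and was not tested for binding.

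The 6 libraries held 12131546 to 17657037 counts. Levels are given in CPM (counts-per-million), with library totals adjusted for composition by TMM scaling. All tests are edgeR's quasi-likelihood test over 14226 genes, with Benjamini-Hochberg adjustment over all of them, and a gene is called where the adjusted p is under 0.05. Ranges in parentheses after a fold change are 95% intervals from that fit. HSC and progenitor markers were detected in every library. Kit stood at 322 and 383 CPM in the controls and at 297 to 355 CPM in MC38, Hlf at 169 and 207 against 162 to 208 CPM, Procr at 81.4 and 84.8 against 87.0 to 98.9 CPM, and Slamf1 at 33.2 and 29.1 against 24.8 to 35.1 CPM. Ly6a, which encodes the stem cell surface antigen Sca-1 and is itself inducible by interferon, was at 94.3 and 120 CPM in the controls and at 165, 158, 177 and 173 CPM in MC38, all above both controls (fold change 1.57, adjusted p = 0.0522 in edgeR, not called). Markers of other cells were also present. Neutrophil markers summed to 27696 to 27947 CPM in the controls and to 53486 to 60911 CPM in MC38 (7 of 8 called higher by edgeR), and B cell markers to 2430 to 2897 and 4563 to 5659 CPM (2 of 6 called higher). Macrophage markers summed to 41.8 to 49.8 and 81.0 to 95.9 CPM (1 of 7 tested called higher, Marco at 0 throughout). T and NK cell markers summed to 487 to 568 and 523 to 588 CPM, with none of 12 called by edgeR. Of these 12, 5 had an unadjusted edgeR p under 0.05, against 17.5% of all genes. Most of these sums was Nkg7, at 453 and 388 CPM in the controls and 326 to 388 CPM in MC38. The fitted change was positive for 10 of the 12 and negative for 2, with a median log2 fold change of 0.79. Every MC38 library lay above both controls for 5 and below both for 1, against 14% and 15% of all tested genes. The part of these cells in the results below was not tested.

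No immunity-related GTPase gene of the 8 was called between tumour and control. All 8 passed the filter on low counts, and 0 of 8 were called higher or lower in MC38 by edgeR, by DESeq2 or by limma-voom, while edgeR called 1.61% of all tested genes, 1.04% higher and 0.569% lower. At an unadjusted p under 0.05 the number was also 0 of 8, against 17.5% of all genes. The fitted change was positive for 6 genes and negative for 2, with a median log2 fold change of 0.21 beside 0.01 over all genes. The range ran from -0.21 for Ifi47 to 0.88 for Iigp1. In bulk libraries fewer cells of a type and less RNA per cell cannot be told apart.

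**Figure D1:**
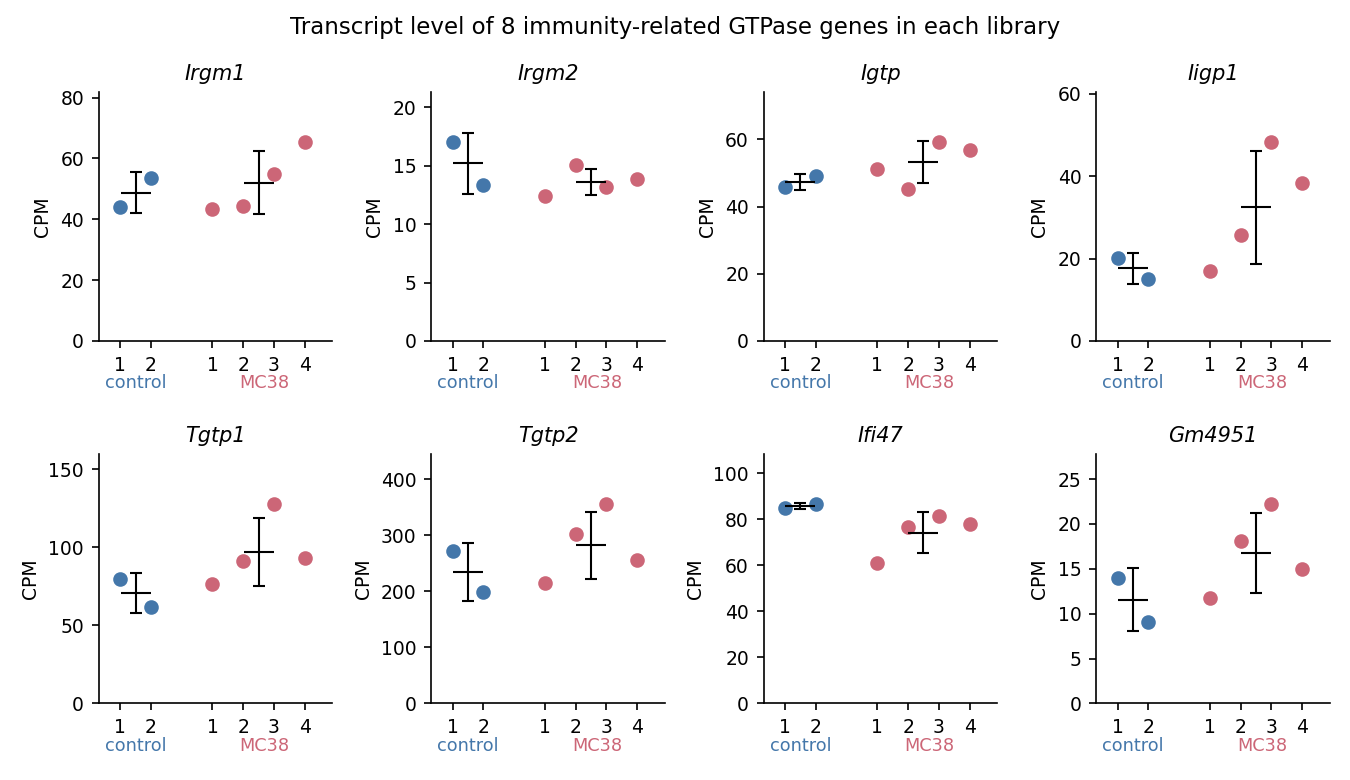
CPM (vertical axis, from 0) of each of the 8 genes in the 2 control and 4 MC38 libraries, numbered by replicate; points are libraries and black bars the group mean ± SD. The groups overlap in every panel but that of Ifi47, where the MC38 libraries reach 81.5 CPM and the lower control is at 84.7 CPM.

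Among the regulators, Irgm1 (ENSMUSG00000046879, chromosome 11: 48861968 to 48871683, mm10) was at 43.9 and 53.5 CPM in the controls and at 43.2, 44.5, 55.0 and 65.5 CPM in MC38 libraries 1 to 4. One MC38 library lay below both controls, 1 between them and 2 above. The fold change was 1.07 (0.770 to 1.48; edgeR adjusted p = 0.869), and its sign turned in 3 alternatives given with the processing.

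Igtp (ENSMUSG00000078853, chromosome 11: 58199556 to 58207591), which guards lipid droplets and endoplasmic reticulum membranes, was at 45.7 and 49.0 CPM in the controls. The MC38 libraries had 51.2, 45.2, 59.3 and 56.7 CPM, so that 3 were above both controls and library 2 was just below both. The fold change was 1.12 (0.858 to 1.47; edgeR adjusted p = 0.677).

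Irgm2, which resides on Golgi membranes, was the lowest of the regulators (ENSMUSG00000069874, chromosome 11: 58199618 to 58222782). It was at 17.1 and 13.4 CPM in the controls and at 12.4, 15.0, 13.2 and 13.9 CPM in MC38 libraries. No MC38 library exceeded the higher control, and 2 lay below both. The fold change was 0.897 (0.589 to 1.36; edgeR adjusted p = 0.824), and without control replicate 1 the log2 fold change turned to 0.03. Igtp and Irgm2 share 162 exonic bases on the same strand in GENCODE M21, which is 8.0% of the exon length of Igtp and 4.4% of that of Irgm2. Reads there may have been counted for neither.

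The effector Iigp1, an extensively studied vacuole-loading GTPase (ENSMUSG00000054072, chromosome 18), had the largest fitted change of the 8. It was at 20.2 and 15.0 CPM in the controls and at 17.1, 25.8, 48.4 and 38.4 CPM in MC38 libraries. Library 1 lay between the controls and the other 3 lay above both, and the spread within MC38 (2.83-fold from lowest to highest) was wider than the 1.84-fold ratio of the group means. The fitted fold change was 1.84 (1.00 to 3.38), with an unadjusted p of 0.0501 and an adjusted p of 0.286 in edgeR. An exact two-sided permutation test of mean log2 CPM gave p = 0.2, where 2 against 4 libraries cannot go below 0.0667.

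Gm4951, its neighbour on chromosome 18 (ENSMUSG00000073555), followed a like order at a lower CPM. Per kilobase of exon, given below, its group means were higher than those of Iigp1. The controls had 14.03 and 9.08 CPM and the MC38 libraries 11.8, 18.1, 22.2 and 14.9 CPM. Library 1 was between the controls and the other 3 were above both, the nearest of them by less than 1 CPM. The fold change was 1.45 (0.848 to 2.48; edgeR adjusted p = 0.468).

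Tgtp1 and Tgtp2, the T cell-specific GTPase copies that load early onto pathogen vacuoles, together took 53.4% to 63.6% of the summed CPM of the 8 genes in the 6 libraries. Tgtp2 (ENSMUSG00000078921, chromosome 11: 49057194 to 49064206) was at 272 and 198 CPM in the controls and at 215, 302, 355 and 256 CPM in MC38 libraries. Of the MC38 libraries 2 lay between the controls and 2 above both, and the fold change was 1.20 (0.872 to 1.65; edgeR adjusted p = 0.56). Tgtp1 (ENSMUSG00000078922, chromosome 11: 48985327 to 48994172) was at 80.0 and 61.9 CPM in the controls and at 76.3, 91.4, 128 and 93.4 CPM in MC38 libraries. Library 1 lay between the controls and the other 3 above both, and the fold change was 1.37 (0.983 to 1.91; edgeR adjusted p = 0.311).

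The split between these copies is uncertain. Of the 50-base stretches of Tgtp1 transcripts, 79.4% also occur in Tgtp2, and 85.8% of those of Tgtp2 occur in Tgtp1. Reads that match both may have been dropped or split by the authors' counting. In GENCODE M21, Tgtp1 also shares 223 exonic bases on the same strand with Gm12185, which is 7.0% of the exon length of Tgtp1. Reads in that overlap may have been counted for neither gene. As counted, Tgtp1 made up 22.7% and 23.8% of the pair in the controls and 23.3% to 26.8% of it in MC38. Summed, the pair stood at 352 and 260 CPM in the controls and at 291, 393, 483 and 349 CPM in MC38 libraries. Fitted as 1 gene, an alternative chosen after seeing the data, the pair had a log2 fold change of 0.31 (edgeR adjusted p = 0.474).

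Ifi47 (ENSMUSG00000078920, chromosome 11: 49076587 to 49096974), also an effector, was the 1 member whose groups did not overlap. The controls were close together at 84.7 and 86.5 CPM, and the MC38 libraries were lower, at 60.9, 76.4, 81.5 and 78.1 CPM. Such a separation downwards was present in 15% of all tested genes, and separation upwards, in none of the 8, was present in 14%. The fold change of Ifi47 was 0.867 (0.680 to 1.11; edgeR adjusted p = 0.545), and the exact permutation p was 0.2. Its exons share 111 bases with the same-strand gene Olfr56 and 106 with the opposite-strand pseudogene Gm12188.

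**Figure D2:**
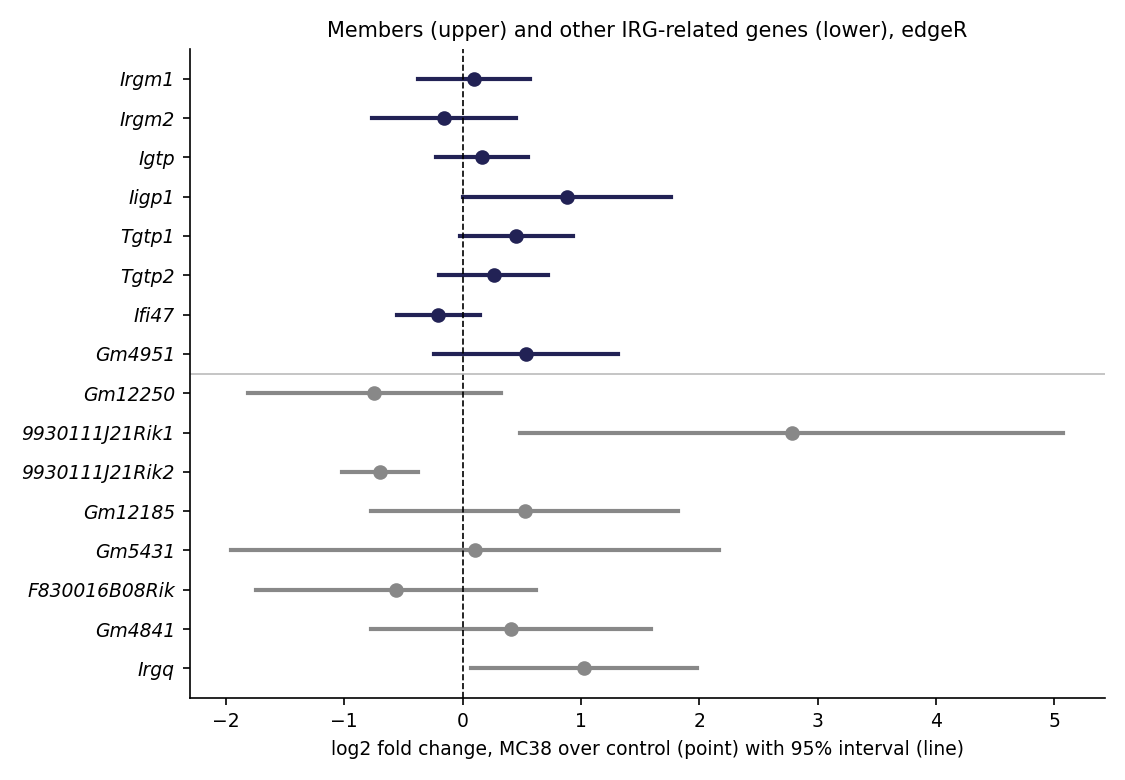
log2 fold change of MC38 over control (horizontal axis; points, with 95% intervals as lines, from edgeR) for the 8 members in dark blue above the grey line and 8 other family-related genes in grey below it. The intervals of all 8 members include 0, that of Iigp1 only just, and the interval of 9930111J21Rik2 lies below 0.

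The libraries of 1 group also differed from each other. In all 8 genes the ratio of the highest to the lowest MC38 library exceeded the ratio of the MC38 mean to the control mean. For Irgm2 (mean ratio 0.897) and Ifi47 (0.867), both below 1, this could not be otherwise. A range over 4 libraries is also a wider measure than a ratio of means. The count therefore cannot rank the spread against the group difference, and the share over all tested genes was not counted. Library MC38 3 was the highest of the 6 for 5 genes (Igtp, Iigp1, Tgtp1, Tgtp2 and Gm4951), and control 2 was the lowest for 4 (the same genes without Igtp). Iigp1 and Tgtp1 ranked the 6 libraries in the same order, from MC38 3 through MC38 4, MC38 2, control 1 and MC38 1 to control 2.

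Summed over the regulators, the controls had 107 and 116 CPM and the MC38 libraries 107, 105, 127 and 136 CPM. The effector sum was 471 and 371 CPM in the controls and 381, 513, 635 and 480 CPM in MC38 libraries. The ratio of effector to regulator transcripts was therefore 4.41 and 3.197 in the controls and 3.56, 4.90, 4.98 and 3.53 in MC38 libraries. These ranges overlap, with means of 3.80 ± 0.86 and 4.24 ± 0.81 (SD, n = 2 and 4). The sum over all 8 genes averaged 532 ± 64.3 CPM in the controls against 621 ± 112 CPM in MC38 (SD, n = 2 and 4). No test was made of these sums.

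Levels of different genes were compared as CPM per kilobase of exon, taken from GENCODE M21. In the controls Tgtp2 was highest at a mean of 79.9 CPM per kb, followed by Ifi47 (34.6), Igtp (23.4), Tgtp1 (22.1), Irgm1 (8.39), Gm4951 (4.37), Irgm2 (4.12) and Iigp1 (3.03). Igtp and Tgtp1 overlapped between the 2 controls, at 22.6 to 24.3 and 19.3 to 25.0 CPM per kb. So did Gm4951 and Irgm2, at 3.43 to 5.31 and 3.62 to 4.62 CPM per kb, while Iigp1, at 2.58 to 3.48 CPM per kb, overlapped Gm4951 but not Irgm2. In MC38 libraries Tgtp2 was again highest (95.9 CPM per kb), and Tgtp1 (30.3), Ifi47 (30.01) and Igtp (26.3) overlapped one another. Irgm1 followed at 8.96 CPM per kb, and Irgm2 had the lowest mean at 3.70 CPM per kb, below Gm4951 (6.33) and Iigp1 (5.57). For the Tgtp copies, reads lost to their shared sequence would lower these values.

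**Figure D3:**
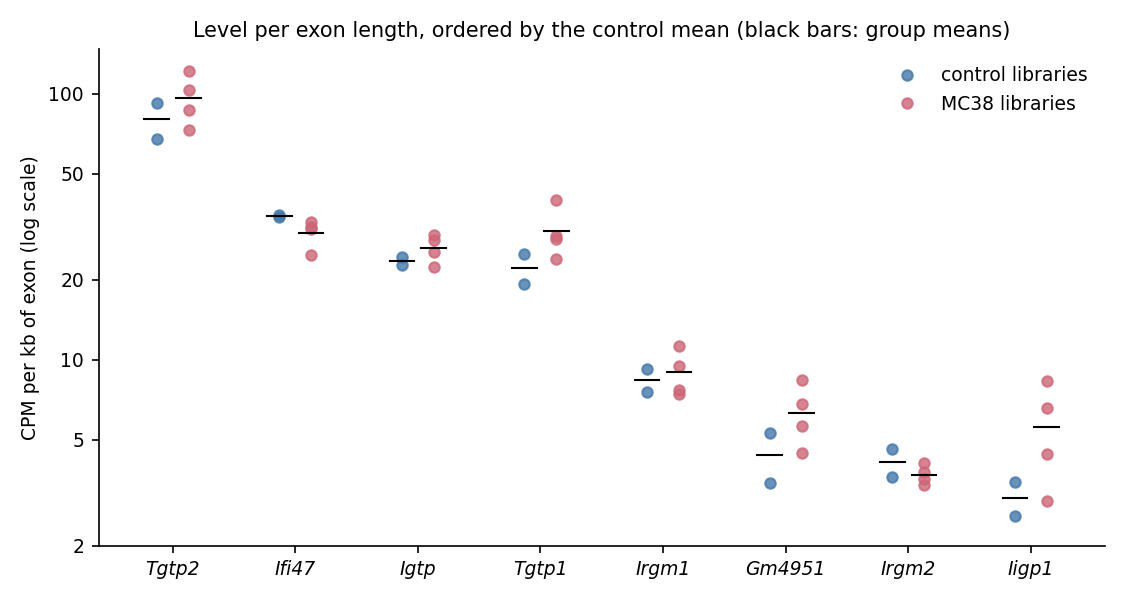
CPM per kb of exon (vertical log axis) for the 8 genes, ordered by the control mean; blue points are the 2 control libraries, red points the 4 MC38 libraries and black bars group means. Tgtp2 lies between 67.4 and 121 CPM per kb in every library, above all other members, and Irgm2, Gm4951 and Iigp1 lie at the bottom, below 9 CPM per kb.

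Further family genes were taken from a list of 13 symbols, some of them synonyms, of which 10 were in the table and 8 passed the filter. An unadjusted edgeR p under 0.05 was reached by 3 of these 8, against 17.5% of all genes. One of the 8 was called, lower in MC38, where edgeR called 0.569% of all tested genes lower and 1.61% in either direction. This was 9930111J21Rik2, a GTPase gene of the chromosome 11 cluster (ENSMUSG00000069892, 49015874 to 49051242). It was at 92.9 and 88.7 CPM in the controls and at 53.3, 51.3, 61.2 and 57.9 CPM in MC38 libraries, with no overlap. It fell to a fold change of 0.616 (0.492 to 0.770; log2 -0.70 with an SE of 0.14; adjusted p = 0.0479 in edgeR). The call was lost with RLE scaling (0.0517), without scaling (0.0589), with limma-voom (0.0547), with the immunoglobulin genes removed (0.0593), and on leaving out control 1 (0.258), control 2 (0.133), MC38 2 (0.151) or MC38 4 (0.151). The adjusted p ran from 0.00222 to 0.258 over all alternatives. Neutrophil markers, given above, moved the other way. Erythroid markers summed to 375 to 433 CPM in the controls and to 261 to 351 CPM in MC38 (none of 5 called by edgeR). The part of either cell type in this fall was not tested.

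Its near copy 9930111J21Rik1 went in the other direction. That gene was at 0.504 and 0.743 CPM in the controls and at 0.740, 3.35, 9.01 and 4.22 CPM in MC38 libraries. It was not called (edgeR adjusted p = 0.206) but passed with DESeq2 (adjusted p = 0.0465), and MC38 library 1 lay between the controls. Of its 50-base stretches 80.4% occur in 9930111J21Rik2, so the counts of both genes are uncertain. Irgq, an autophagy-linked relative of the family, was at 4.12 and 6.19 CPM in the controls and at 6.25, 11.4, 13.6 and 10.7 CPM in MC38 libraries (edgeR adjusted p = 0.253). Gm12250, the gene of the effector Irgb10 in RefSeq and a pseudogene in GENCODE M21, was at 8.91 and 13.2 CPM in the controls and at 9.68, 4.79, 3.28 and 8.66 CPM in MC38 libraries (edgeR adjusted p = 0.463). Gm12185, Gm5431, F830016B08Rik and Gm4841 stayed below 9 CPM in every library and were not called (edgeR adjusted p from 0.639 to 0.967). Irgc1, a family gene of the testis, had at most 20 counts in a library, and Gm5970 had none.

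The interferon gamma pathway that induces these genes was followed in 41 listed genes, of which 38 were in the table and 35 were tested. Those called were 2, both higher, and the median log2 fold change was 0.32 against 0.01 over all genes. An unadjusted edgeR p under 0.05 was reached by 9 of the 35, against 17.5% of all genes. Every MC38 library lay above both controls for 12 and below both for 2, against 14% and 15% of all tested genes. This list, like the others here, was chosen with earlier results of these data known. Its counts and median therefore describe the list and are not an independent comparison with all genes. Ifngr1, the ligand-binding receptor chain, was at 107 and 103 CPM in the controls and at 173, 144, 174 and 171 CPM in MC38 libraries. It rose 1.58-fold (1.29 to 1.93; edgeR adjusted p = 0.0405). Its call was lost on leaving out control 1 (0.22), control 2 (0.157), MC38 2 (0.0696) or MC38 4 (0.142), with limma-voom (0.0571) and with the immunoglobulin genes removed (0.0512), and over all alternatives its adjusted p ran from 0.000413 to 0.22. Serpina3g, a protease inhibitor gene inducible by interferon gamma, was at 178 and 167 CPM in the controls and at 398, 365, 367 and 378 CPM in MC38 libraries. It rose 2.18-fold (1.83 to 2.598; edgeR adjusted p = 0.000946) and passed in all 15 alternatives.

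Irf1, Ifngr2 and Ifng, also on the route from interferon gamma to the GTPase genes, were not called. Irf1, which binds response elements, was at 141 and 129 CPM in the controls and 134, 141, 133 and 132 CPM in MC38 libraries (fold change 1.00, 0.837 to 1.20, edgeR adjusted p = 0.994). Ifngr2, the second receptor chain, was at 12.9 and 23.9 CPM in the controls and at 21.3, 40.2, 38.2 and 21.5 CPM in MC38 libraries (edgeR adjusted p = 0.348). Transcripts of the ligand Ifng itself were few, at 58 and 25 counts in the controls and 53, 49, 113 and 105 counts in MC38 libraries (edgeR adjusted p = 0.662).

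Type I interferon also induces many of these GTPases. Of 24 type I interferon genes tested, 0 were called in edgeR or DESeq2, and the median log2 fold change was 0.05. An unadjusted edgeR p under 0.05 was reached by 5 of them, against 17.5% of all genes. The 4 of smallest p did not share a direction. Oasl2 was at 32.5 ± 4.25 and 46.1 ± 4.23 CPM in control and MC38 (SD, n = 2 and 4; edgeR adjusted p = 0.196), and Oas2, an oligoadenylate synthetase, at 6.45 ± 0.21 and 13.9 ± 6.07 CPM (edgeR adjusted p = 0.238). Oasl1 stood lower in MC38, at 7.44 ± 1.85 and 2.93 ± 1.05 CPM (edgeR adjusted p = 0.223), and Rsad2, which encodes viperin, at 24.4 ± 1.48 and 13.2 ± 5.73 CPM (edgeR adjusted p = 0.268).

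The autophagy conjugation proteins, which attach ubiquitin-like Atg8 proteins to membranes and which effector GTPases need for correct targeting, were also listed. Of 17 genes tested, 5 reached an unadjusted p under 0.05 in edgeR, against 17.5% of all genes. After adjustment edgeR called 0 and DESeq2 called 1. That gene, Atg7, encodes the E1-like enzyme of the pathway. It was at 20.1 and 24.4 CPM in the controls and at 47.4, 39.2, 41.9 and 41.0 CPM in MC38 libraries, with no overlap (edgeR adjusted p = 0.051, DESeq2 adjusted p = 0.000857). Gabarapl2, an Atg8 homologue linked to GTPase targeting, was at 142 ± 18.3 and 182 ± 16.8 CPM (SD, n = 2 and 4; edgeR adjusted p = 0.216). Gabarapl1, another homologue, stood at 236 ± 5.11 and 193 ± 13.2 CPM (adjusted p = 0.233 in edgeR) and Map1lc3a at 65.3 ± 11.9 and 43.6 ± 5.16 CPM (edgeR adjusted p = 0.144).

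**Figure D4:**
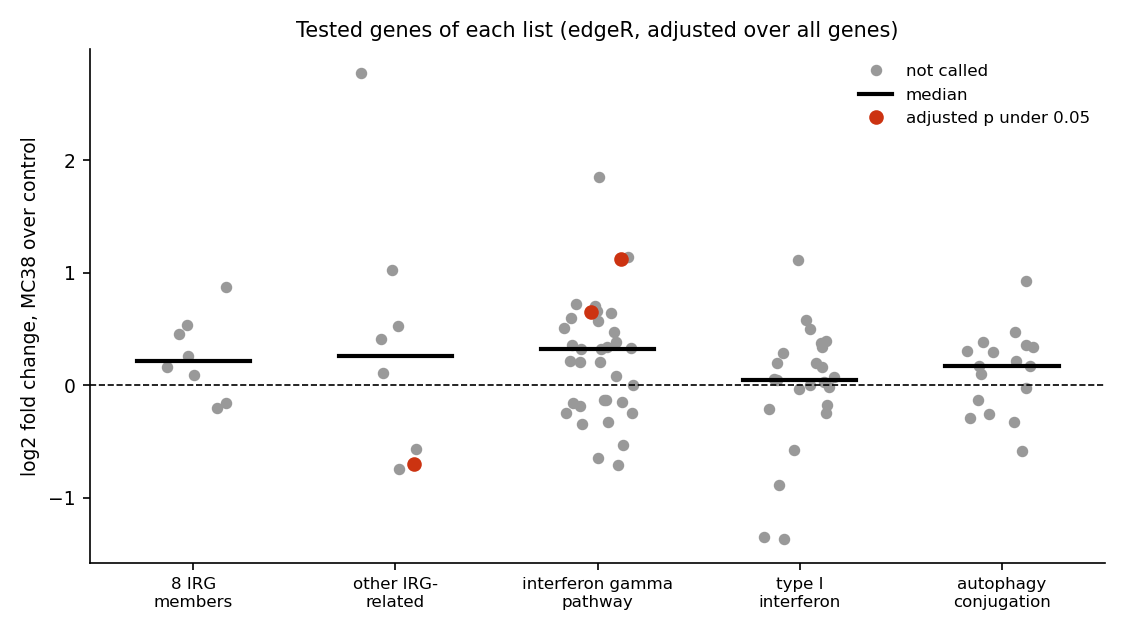
log2 fold change of MC38 over control (vertical axis) for the tested genes of 5 lists; each point is a gene, red where the edgeR adjusted p is under 0.05, and black bars are medians. The 8 members hold no red point, and the interferon gamma list holds 2, Ifngr1 and Serpina3g.

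Outside the family, the genes whose log2 CPM followed the mean standardised profile of the 8 members most closely over the 6 libraries were Bglap3, Fbxo8, Man1a, Dck and Sept2. Their Pearson correlations, from 0.988 to 0.995, are the 5 largest among all other tested genes and are given as a description only. Bglap3 was below 1.3 CPM in every library. The members themselves followed that mean unevenly, from 0.18 for Irgm2 to 0.95 for Iigp1. Each member is part of that mean, and both Tgtp copies, with their shared sequence, enter it. The members' correlations are therefore not independent of it.

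**Figure D5:**
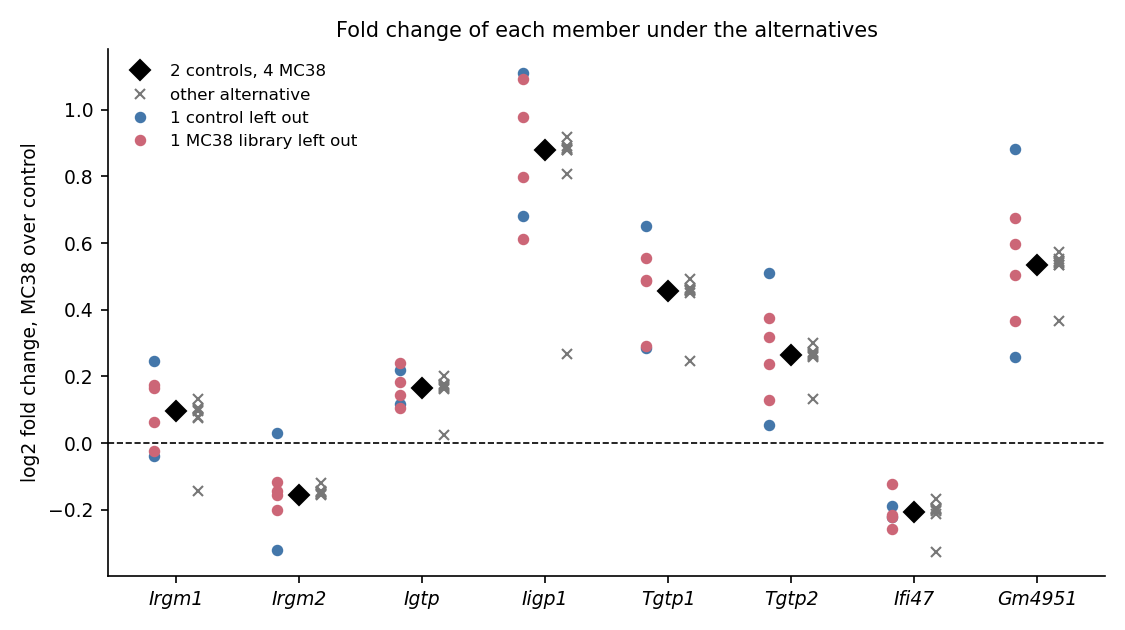
log2 fold change of MC38 over control (vertical axis) for each member: black diamonds are the fit of 2 control and 4 MC38 libraries, blue and red points the fits with 1 control or 1 MC38 library left out, and grey crosses the other alternatives. Iigp1 stays above 0 throughout, from 0.27 to 1.11, Ifi47 stays below 0, and Irgm1 lies on both sides.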

How the data were processed

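The authors deposited read counts per Ensembl gene, 1 column per library, and these counts are raw whole numbers per the file's values. The submitters' processing notes name HTSeq 0.10.0, STAR 2.6.1, Trim Galore 0.5.0 and mm10, and the annotation release and strand setting were not stated. Symbols (27728 of 28786 genes matched), coordinates and exon lengths came from GENCODE M21 (GRCm38, the assembly of mm10), and start windows from RefSeq. PCR copies were counted as reads. edgeR 4.0.16 (R 4.3.3) was run with TMM, filterByExpr and robust quasi-likelihood fits, and SE was taken as the log2 fold change over the square root of F. DESeq2 1.42.0, limma 3.58.1 and the other alternatives are given in the closing section. Permutation tests used log2(CPM + 0.5). The fit was tested on simulated counts. Named were all members, other family genes with a count, in each other list the called genes or else the 4 of smallest p, 5 fixed pathway genes (1 of them, and 1 stem cell marker, not reported here) and the 5 genes of most similar profile; Gm5970, without a count, was named after its values were seen. Members and lists were chosen with earlier results of these data known.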

Additional observations from a re-analysis of the deposited data

Results flagged for a closer look

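Among 33 quantities examined, 2 had an MC38 library whose gap to the nearest other passed Dixon's 95% limit for 4 samples (gaps of 0.896 and 0.951 of the range). Chance alone gives about 1 in 20. Both lie in MC38 library 2. Ifngr1 was at 144.5 CPM there and at 170.5 CPM or more in the others, still above both controls. Irgc1 was at 1.37 CPM there (20 counts), with 1 count in MC38 library 1 and none in the others.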

How the results depend on the processing

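The 8 members gave 0 calls in either direction in all 15 alternatives, in 119 fits of single members, of which 115 kept their direction. The exceptions, with edgeR, were Irgm1 (log2 fold change -0.14 with the replicate block, -0.02 without MC38 replicate 4, and -0.039 to 0.25 over the fits with 1 library left out) and Irgm2 (-0.32 to 0.029, the latter without control replicate 1). The lowest adjusted p of a member was 0.0694, for Iigp1. Its log2 fold change was 0.27 with the replicate block and 0.61 without MC38 replicate 3. Gm5431 turned to -0.49 with the replicate block, -0.35 without control replicate 2 and -0.38 without MC38 replicate 3 (up to 0.78 with 1 library left out), and Irf1 ran from -0.060 to 0.071 with 1 library left out. In the replicate block, MC38 replicates 3 and 4 had no control of the same number. They therefore added nothing to the fitted group difference there. The cause of the other shifts was not tested.

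Against 148 genes higher and 81 lower, DESeq2 gave 634 and 393, all 7 columns 791 and 663, no filter 302 and 202, and the table without immunoglobulin genes 95 and 36. The replicate block gave 269 and 190. Same-numbered libraries deviated together with r = 0.0666 and -0.0398. The deviations of 2 controls from their mean mirror each other, and MC38 replicates 3 and 4 have no control partner. These values therefore cannot decide whether the numbers pair the libraries. Leaving out 1 library gave 44 to 259 higher and 16 to 183 lower. Interferon gamma genes called, 2 in the reported fit, were 7 with DESeq2, 9 with 7 columns, 4 without filter, 1 with limma-voom, 1 without immunoglobulin genes and 1 to 4 with 1 library left out. Other family genes called, 1 in the reported fit, were 2 with DESeq2, 0 with RLE scaling, no scaling, limma-voom or without immunoglobulin genes, and 0 to 1 with 1 library left out. Autophagy genes called were 1 with DESeq2, no filter or no scaling and 2 with 7 columns, and type I interferon genes 1 with 7 columns and 1 with the replicate block. With 2 controls the members' intervals stay wide, up to 3.38-fold for Iigp1.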
